A study of Mus musculus with 9 samples.

Results

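Tuft cells are rare chemosensory cells of the intestinal epithelium. They read luminal signals through a taste-type pathway in which a G protein and a phospholipase release calcium and open the channel TRPM5, and they are known for releasing the cytokine IL-25 and for making eicosanoids, which engage type 2 immune cells during infection with worms and protists. POU2F3 is the transcription factor without which the lineage does not form. The 9 tuft cell genes Dclk1, Trpm5, Pou2f3, Avil, Gfi1b, Il25, Alox5ap, Sh2d6 and Rgs13 were followed in 7 RNA-seq libraries of mouse small intestinal organoids. They were selected by gene symbol as known tuft cell genes, and all 9 were matched among 54838 gene identifiers.

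The organoids were grown from small intestinal crypts of male Mettl3 fl/fl mice aged 2 to 4 months that carry Vil-CreERT2, so that every group, controls included, holds the floxed alleles of the m6A RNA methyltransferase gene Mettl3 and a tamoxifen-inducible Cre under the epithelial villin promoter. Cultures received 4-OHT, the active tamoxifen metabolite, at 500 nM for 2 days or its vehicle EtOH. They also received Nec-1, an inhibitor of the death kinase RIPK1, or its vehicle DMSO, for 5 days. Whether Nec-1 began with 4-OHT or after it is not stated in the sources used here. The sources used here give 5 uM and 10 uM for Nec-1. The groups were EtOH DMSO (2 libraries), EtOH Nec-1 (2), 4-OHT DMSO (2) and 4-OHT Nec-1 (1), and no group received 4-OHT without the Cre, so effects of 4-OHT or Cre activity alone cannot be told apart from those of Mettl3 deletion. Organoids hold epithelium only by design, without the immune cells that tuft cells signal to.

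Levels are FPKM, read fragments scaled to transcript length and library size, which can be compared between genes. The 7 libraries summed to 450207 to 498712 FPKM and held 11559 to 12038 genes at 1 FPKM or more. The number of reads behind an FPKM is unknown. Mettl3, the targeted gene, stood at 3.72 and 4.14 FPKM in the 4-OHT DMSO libraries, 3.36 after 4-OHT with Nec-1, 2.70 and 2.71 after EtOH with DMSO and 2.41 and 2.47 after EtOH with Nec-1. Its level was therefore higher, not lower, in the libraries labelled 4-OHT (log2 difference between the DMSO groups 0.41, SE 0.098, limma adjusted p = 0.0231). The gene-level value does not separate the floxed exons from the rest of the transcript, so it does not check the labels, and each direction below is between libraries as labelled.

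Promoters of 3 records are shown because Avil and Dclk1 are the 2 members whose 4-OHT and EtOH libraries separated most clearly, in opposite directions. RefSeq promoters on GRCm38.p6, from 250 bases before to 50 bases after a start site, were found for 6 members (7 sequences). The octamer ATGCAAAT, the motif bound by POU factors, was searched on both strands, as was its 7-base start ATGCAAA, which every octamer also contains. The octamer was in 1.74% of 32851 promoters and in 0 of the 7, and the 7-base form was in 4.63% of all promoters and in 1 of the 7, that of Avil. AAATCAC, the core motif of GFI1-type repressors, was in 3.20% of all promoters and in 0 of the 7. The Avil promoter (chr10:127000459-127000758, plus strand) and the 2 Dclk1 promoters (chr3:55242114-55242413 and chr3:55461478-55461777, plus strand) lie at start sites of genes that span chr10:127000065-127020994 and chr3:55242303-55539068. They read as follows, with capitals marking the 7-base form on either strand.
Avil: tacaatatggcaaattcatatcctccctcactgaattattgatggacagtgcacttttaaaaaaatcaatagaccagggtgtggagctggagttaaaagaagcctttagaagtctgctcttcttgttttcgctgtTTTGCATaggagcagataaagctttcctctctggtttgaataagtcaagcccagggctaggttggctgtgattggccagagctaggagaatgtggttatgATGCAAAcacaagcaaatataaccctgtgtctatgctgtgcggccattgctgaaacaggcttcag
Dclk1, first start: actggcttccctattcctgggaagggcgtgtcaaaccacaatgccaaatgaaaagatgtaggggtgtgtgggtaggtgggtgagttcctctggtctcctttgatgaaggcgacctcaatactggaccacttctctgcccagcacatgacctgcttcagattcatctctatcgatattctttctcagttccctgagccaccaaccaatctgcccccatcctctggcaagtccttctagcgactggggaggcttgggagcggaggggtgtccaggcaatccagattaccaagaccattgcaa
Dclk1, second start: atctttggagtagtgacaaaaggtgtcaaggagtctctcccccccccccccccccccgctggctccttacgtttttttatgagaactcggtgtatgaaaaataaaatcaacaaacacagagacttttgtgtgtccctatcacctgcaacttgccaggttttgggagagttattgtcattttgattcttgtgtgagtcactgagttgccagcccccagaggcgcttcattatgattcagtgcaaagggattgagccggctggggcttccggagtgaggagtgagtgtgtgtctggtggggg
The Avil sequence holds the 7 bases at 2 places, beginning 115 and 15 bases before the start site, the first of them on the opposite strand. These matches describe letters only.

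The tuft cell genes were expressed at low levels in every library. Mean FPKM over the 7 libraries was 2.60 for Sh2d6, 2.40 for Rgs13, 2.28 for Avil, 1.41 for Alox5ap, 0.737 for Dclk1, 0.710 for Trpm5, 0.552 for Pou2f3 and 0.140 for Gfi1b, and Il25 was listed at 0 everywhere. The ranges of Sh2d6, Rgs13 and Avil overlapped, as did those of Dclk1, Trpm5 and Pou2f3, whereas Gfi1b lay below every other detected member in each library. Together the 9 genes summed to 10.1 and 10.4 FPKM in the EtOH DMSO pair, 10.3 and 10.7 in the 4-OHT DMSO pair, 11.7 and 12.1 in the EtOH Nec-1 pair and 10.4 in the single 4-OHT Nec-1 library. The sum thus stayed within a narrow range, while that of 10 Paneth cell genes ran from 8847 to 24446 FPKM. It adds members that went opposite ways. Avil was higher in all libraries labelled 4-OHT, whereas Dclk1, Pou2f3 and Alox5ap were lower in all of them. A steady sum therefore does not show that its members were steady. In bulk RNA, fewer cells of a type and less RNA per cell cannot be told apart.

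**Figure D1:**
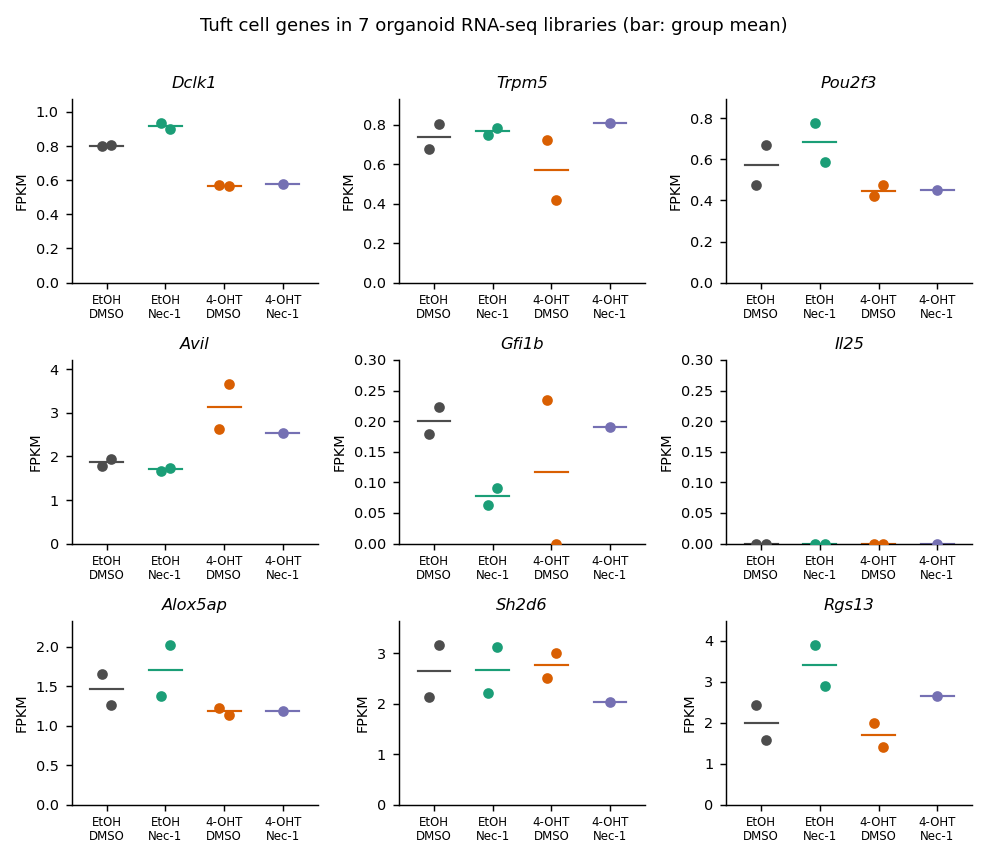
FPKM (y axis, from 0) of the 9 tuft cell genes by group (x axis), with a point for each of the 7 libraries and a bar at the group mean. Dclk1 is lower and Avil higher in all 3 libraries labelled 4-OHT, Rgs13 is highest in the EtOH Nec-1 libraries, and Il25 is at 0 throughout.

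The first question was whether these genes differed between organoids treated with 4-OHT and those treated with EtOH. Pou2f3 was measured at 0.422 and 0.473 FPKM in the 4-OHT DMSO libraries, 0.453 after 4-OHT with Nec-1, 0.478 and 0.671 after EtOH with DMSO and 0.778 and 0.587 after EtOH with Nec-1. The 3 libraries labelled 4-OHT lay just under the lowest EtOH library. Gfi1b, a zinc finger repressor of the tuft and blood lineages, was at 0.178 and 0.223 FPKM in the EtOH DMSO pair, 0.235 and 0 in the 4-OHT DMSO pair, 0.0637 and 0.0904 in the EtOH Nec-1 pair and 0.190 in the single 4-OHT Nec-1 library. Its 2 libraries of 4-OHT DMSO were the highest and the lowest of the 7, so the groups overlapped. Trpm5, the calcium-activated cation channel at the end of the taste pathway, gave 0.723 and 0.421 FPKM in the 4-OHT DMSO libraries, 0.810 after 4-OHT with Nec-1, 0.676 and 0.806 after EtOH with DMSO and 0.749 and 0.786 after EtOH with Nec-1. Only the second 4-OHT DMSO library stood apart, below the rest. Dclk1, a microtubule-associated kinase used as the standard tuft cell marker, was at 0.801 and 0.805 FPKM in the EtOH DMSO pair, 0.569 and 0.567 in the 4-OHT DMSO pair, 0.935 and 0.901 in the EtOH Nec-1 pair and 0.580 in the single 4-OHT Nec-1 library. Its libraries labelled 4-OHT were nearly equal and all below the EtOH libraries, and the replicates of each group lay closer together than the EtOH and 4-OHT groups.

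These 4 genes, and Il25, did not reach 1 FPKM in at least 2 libraries, the filter of the main test, which Avil, Alox5ap, Sh2d6 and Rgs13 passed. With the filter at 0.1 FPKM, 8 members were tested and 0 were called in either direction between 4-OHT DMSO and EtOH DMSO at a limma adjusted p under 0.05, where 16.0% of 19697 genes were called higher and 10.9% lower. On the log2(FPKM + 1) scale, which understates changes of low genes, the difference of Dclk1 was -0.20 (SE 0.093, 95% interval -0.44 to 0.034, limma adjusted p = 0.175). Trpm5 differed by -0.15 (limma adjusted p = 0.434), Pou2f3 by -0.12 (0.494) and Gfi1b by -0.11 (0.523). With a pseudocount of 0.1 in place of 1, chosen after seeing the data, the differences were -0.43 for Dclk1 (limma adjusted p = 0.204), -0.36 for Trpm5 (0.439), -0.29 for Pou2f3 (0.518) and -0.71 for Gfi1b (0.448).

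Avil, which encodes the actin-binding protein advillin of the tuft cell brush, was the member that rose. It was measured at 2.62 and 3.66 FPKM in the 4-OHT DMSO libraries, 2.53 after 4-OHT with Nec-1, 1.79 and 1.94 after EtOH with DMSO and 1.67 and 1.74 after EtOH with Nec-1. All libraries labelled 4-OHT were above all EtOH libraries, and the 2 of 4-OHT DMSO differed from each other more than the EtOH libraries did. The log2 difference between the DMSO groups was 0.52 (SE 0.15, 95% interval 0.15 to 0.89, limma adjusted p = 0.0390). Thus 1 of 4 tested members was called higher and 0 lower, beside 24.5% of 12702 genes called higher and 16.7% lower, a share close to that of all genes. The call of Avil was lost when each library was centred on its median (0.36, adjusted p = 0.0908). It was also lost without either EtOH DMSO library, either EtOH Nec-1 library or the second 4-OHT DMSO library, the difference being 0.34 without the last of these, with adjusted p-values of 0.0553 to 0.137 over the settings that lost it.

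Alox5ap, the activating protein of 5-lipoxygenase in leukotriene synthesis, was at 1.66 and 1.26 FPKM in the EtOH DMSO pair, 1.23 and 1.13 in the 4-OHT DMSO pair, 1.38 and 2.02 in the EtOH Nec-1 pair and 1.19 in the single 4-OHT Nec-1 library. The libraries labelled 4-OHT lay slightly below the lowest EtOH library, with a log2 difference between the DMSO groups of -0.17 (95% interval -0.58 to 0.25, limma adjusted p = 0.454). It was -0.049 without the first and -0.29 without the second EtOH DMSO library, and -0.33 with median centring, not called in any of these. Sh2d6, an SH2-domain adaptor, was at 2.52 and 3.01 FPKM in the 4-OHT DMSO libraries, 2.04 after 4-OHT with Nec-1, 2.13 and 3.17 after EtOH with DMSO and 2.22 and 3.12 after EtOH with Nec-1. Replicates within each of the 2 DMSO groups differed more than the means of those groups, and the log2 difference was 0.055 (95% interval -0.44 to 0.55, limma adjusted p = 0.845). Rgs13, a regulator that shortens G protein signalling, gave 2.42 and 1.57 FPKM in the EtOH DMSO pair, 1.99 and 1.39 in the 4-OHT DMSO pair, 3.90 and 2.90 in the EtOH Nec-1 pair and 2.66 in the single 4-OHT Nec-1 library. The 4-OHT DMSO and EtOH DMSO libraries overlapped (log2 difference -0.15, 95% interval -0.67 to 0.38, limma adjusted p = 0.606).

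When the 3 libraries labelled 4-OHT were set against the 4 labelled EtOH, a comparison chosen after seeing the data and one that mixes Nec-1 and DMSO, Avil was above and Dclk1, Pou2f3 and Alox5ap were below in every pairing. Among 19697 genes 23.9% were above and 16.2% below in the same way. The exact two-sided permutation p for the mean on the log2 scale, not adjusted, was 0.0286 for Dclk1 and for Avil, the smallest that 35 assignments allow. It was 0.0571 for Pou2f3 and 0.0857 for Alox5ap, and between 0.314 and 1 for Trpm5, Gfi1b, Sh2d6 and Rgs13.

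The second question was how the tuft cell genes compared when RIPK1 was inhibited. In EtOH organoids, Nec-1 was accompanied by 0 called members in either direction, beside 0.173% of 12702 genes called higher and 0.0472% lower. With the 0.1 FPKM filter 0 of 8 were called, beside 0.0914% of 19697 genes higher and 0.0203% lower. Rgs13, 1 of the 4 tested members and the one with an unadjusted limma p under 0.05, had a log2 difference of 0.56 (SE 0.21, limma adjusted p = 0.357), both Nec-1 libraries being above both DMSO libraries. It was 0.35 without the second EtOH DMSO library (limma adjusted p = 0.656). The others differed by -0.084 (Avil, limma adjusted p = 0.848), 0.13 (Alox5ap, 0.770) and 0.012 (Sh2d6, 0.990). Both Nec-1 libraries of Avil were below both DMSO libraries. Among the low members, with the 0.1 FPKM filter, Dclk1 was 0.089 higher, with both Nec-1 libraries above both DMSO libraries (95% interval -0.15 to 0.32, limma adjusted p = 0.794). Gfi1b differed by -0.16, both Nec-1 libraries being below both DMSO libraries (95% interval -0.45 to 0.13, limma adjusted p = 0.699). Trpm5 differed by 0.023 (0.981) and Pou2f3 by 0.096 (0.829), with overlapping libraries. With 2 libraries against 2, a full separation cannot give an exact two-sided permutation p under 0.333. The share of all genes that separated in this way was not counted, so these separations are descriptions only.

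In 4-OHT organoids the Nec-1 arm had 1 library, so its values are descriptions without a test. None of the 4 members averaging 1 FPKM or more was 1 log2 unit above or below both DMSO libraries. That distance was reached upwards by 0.764% and downwards by 1.21% of 12036 genes at that level. The other members were too low to fall by 1 log2 unit on this scale, and none of them was 1 unit above. Rgs13 was 0.45 log2 units above the DMSO mean and above each library, and Trpm5 was 0.21 above. Sh2d6 was 0.30 and Avil 0.22 log2 units below the DMSO mean, each lower than both libraries. Among the 12036 genes 2947 were above and 6094 below both DMSO libraries. Dclk1, Pou2f3 and Alox5ap differed by at most 0.011 on the log2 scale. Dclk1 stood at 0.580 FPKM in that library, beside means of 0.568 for 4-OHT DMSO and 0.803 for EtOH DMSO. The median over the 4 members at 1 FPKM was -0.11, beside -0.089 over all genes. The 2 comparisons with Nec-1 have no libraries in common, but each shares its DMSO libraries with the comparison of 4-OHT.

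**Figure D2:**
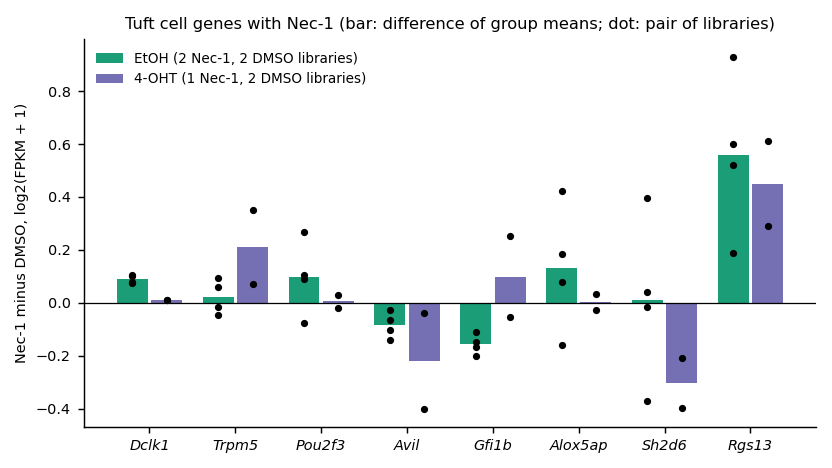
Difference between Nec-1 and DMSO libraries on the log2(FPKM + 1) scale (y axis) for the 8 detected tuft cell genes (x axis), in EtOH and in 4-OHT organoids. Bars are differences of group means and dots are single pairs of libraries. Rgs13 and Dclk1 have every dot above 0 in both, and Avil has every dot below 0 in both. In 4-OHT organoids 2947 of 12036 genes were above and 6094 below both DMSO libraries, and the share in EtOH organoids was not counted.

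The other genes of the tuft program were taken from lists by role, 72 genes beside the members, of which 37 passed the 1 FPKM filter. Some stood far above every member. Means in EtOH DMSO were 398 FPKM for Krt18, 137 for Cd24a and 43.6 for Krt23, beside 2.65 for Sh2d6. Which cells these transcripts came from was not tested, so changes of the listed genes cannot be assigned to tuft cells. Between 4-OHT DMSO and EtOH DMSO 14 of the 37 rose, 4 fell and 19 were not called, beside 24.5% of all tested genes called higher and 16.7% lower. The median log2 difference was 0.15 beside 0.077 over all genes. With each library centred on its median, 12 were higher and 7 lower, beside 17.4% of 12702 genes higher and 25.1% lower. The medians became -0.0066 and -0.080. Kctd12, Pla2g4a and Lect2 passed the filter only through libraries labelled 4-OHT, and Il17rb only through EtOH libraries, so their direction was partly set by the filter. With 1 FPKM required in every library, 28 genes of these lists were tested, 10 being called higher and 2 lower. The share of all genes called with that filter was not counted, so these 2 counts cannot be set beside it.

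Among transcription factors 2 of 8 were tested, Pou2f3 and Gfi1b being too low. Sox4, a high-mobility-group factor of early tuft and enteroendocrine cells, rose. Its levels were 11.1 and 12.8 FPKM in EtOH DMSO and 24.9 and 22.7 in 4-OHT DMSO (log2 difference 0.94, SE 0.10, limma adjusted p = 0.00205). Of the 13 genes of taste-type signalling 3 were tested, Rgs13 among them, and 0 were called, with a median of -0.15. With centred libraries 1 of these 3 genes was called lower, beside 25.1% of 12702 genes, and it was not Rgs13. Itpr3, the calcium release channel of the pathway and its most abundant gene, was at 17.1 and 22.6 FPKM in EtOH DMSO and at 14.9 and 15.7 in 4-OHT DMSO (-0.35, limma adjusted p = 0.102).

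Of 6 genes of eicosanoid synthesis 3 were tested and 1 rose. Pla2g4a, the phospholipase that frees arachidonic acid, was at 0.975 and 0.981 FPKM in EtOH DMSO and at 3.59 and 2.98 in 4-OHT DMSO (log2 difference 1.11, SE 0.13, limma adjusted p = 0.00241). It stood at 2.74 FPKM in 4-OHT Nec-1, above every EtOH library. Ltc4s, the leukotriene C4 synthase, overlapped between the groups (0.067, limma adjusted p = 0.840).

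The cytokines and receptors moved in both directions, 2 of 4 tested genes up and 2 down. Il13ra1 and Il4ra, the chains of the receptor through which IL-4 and IL-13 reach the epithelium, rose. Il13ra1 was at 12.9 and 13.6 FPKM in EtOH DMSO and at 31.1 and 33.1 in 4-OHT DMSO (log2 difference 1.21, SE 0.084, limma adjusted p = 0.000661). Il4ra was at 3.46 and 3.77 FPKM in EtOH DMSO and 7.01 and 7.71 in 4-OHT DMSO (0.86, limma adjusted p = 0.00369). Il17rb, the receptor chain for IL-25, fell from 1.19 and 1.49 FPKM to 0.496 and 0.535 (log2 difference -0.62, SE 0.14, limma adjusted p = 0.0204). It was at 0.714 FPKM in 4-OHT Nec-1, still under every EtOH library. Cd24a, a surface glycoprotein used to sort tuft, enteroendocrine and Paneth cells, fell from 144 and 129 FPKM to 94.0 and 92.8 (-0.54, limma adjusted p = 0.00607).

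Of 16 genes of immune-type signalling 6 were tested and 0 were called, the most abundant being Csk, an inhibitory kinase of the Src family (0.21, limma adjusted p = 0.0749). Of 8 genes of structure and cytoskeleton 6 were tested and 4 rose, with a median of 0.47. Beside Avil these were Krt23 (log2 difference 0.98, limma adjusted p = 0.00146), Tuba1a (0.49, 0.0147) and Krt18 (0.45, 0.0110), a type I keratin, an alpha tubulin and the keratin of simple epithelia. Krt23 was at 42.2 and 45.0 FPKM in EtOH DMSO and at 81.7 and 92.2 in 4-OHT DMSO. It was at 30.1 and 31.8 FPKM in EtOH Nec-1 and at 46.2 in 4-OHT Nec-1. The Nec-1 libraries were thus below the DMSO libraries with and without 4-OHT, and the single 4-OHT Nec-1 library was above both EtOH Nec-1 libraries. With centred libraries 1 of these 6 genes was called higher.

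**Figure D3:**
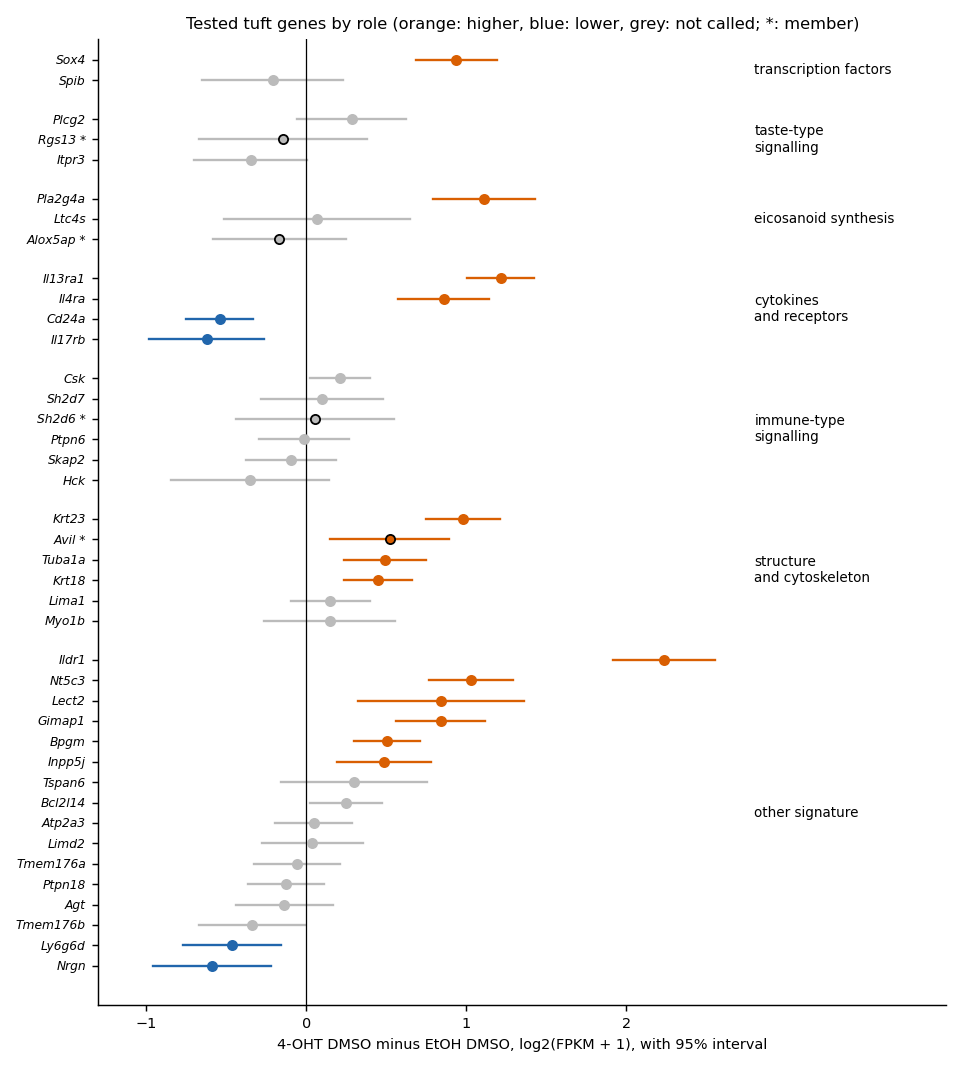
Log2 difference between 4-OHT DMSO and EtOH DMSO (x axis, log2(FPKM + 1) with the 95% interval) of the tested tuft genes by role (y axis). Orange marks genes called higher, blue lower and grey not called, a star and black ring mark members, and Kctd12, at 0 in EtOH, is not drawn. The 4 tested members sit near 0 apart from Avil, and the largest differences are of genes outside the member list.

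Of 22 further signature genes 17 were tested, 7 rose and 2 fell. Ildr1, a tricellular junction protein that is also known from enteroendocrine cells, was at 8.26 and 9.54 FPKM in the 4-OHT DMSO libraries, 25.6 after 4-OHT with Nec-1, 0.928 and 1.29 after EtOH with DMSO and 3.45 and 3.71 after EtOH with Nec-1. No 2 groups overlapped, and the level stood higher after 4-OHT than after EtOH and, within each, higher in the Nec-1 libraries. Its log2 difference was 2.23 between the DMSO groups (SE 0.13, limma adjusted p = 0.000452) and 1.13 for Nec-1 in EtOH (limma adjusted p = 0.0613, not called). In 4-OHT Nec-1 it was 1.34 and 1.52 above the single DMSO libraries, the 1 of 34 other tuft genes past 1 log2 unit. Kctd12, an auxiliary subunit of the GABA-B receptor, was listed at 0 in all 4 EtOH libraries and at 5.70, 5.32 and 5.73 FPKM in the 3 labelled 4-OHT. No fold is given for it, since a listed 0 may also be a failed estimate, but it is counted among the 7 that rose. Nt5c3, a pyrimidine nucleotidase, rose by 1.03 on the log2 scale (limma adjusted p = 0.00175), and Lect2, a secreted chemotactic factor, by 0.84 (0.0249). Tmem176b, the most abundant gene of this group, was not called (-0.34, limma adjusted p = 0.0913).

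With Nec-1 in EtOH organoids 0 of the 37 other tuft genes were called, beside 0.173% of all tested genes higher and 0.0472% lower. An unadjusted limma p under 0.05 was reached by 6 of the 37, beside 13.3% of all tested genes. In 4-OHT organoids 9 of 34 were above and 19 below both DMSO libraries, beside 2947 and 6094 of 12036 genes.

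**Figure D4:**
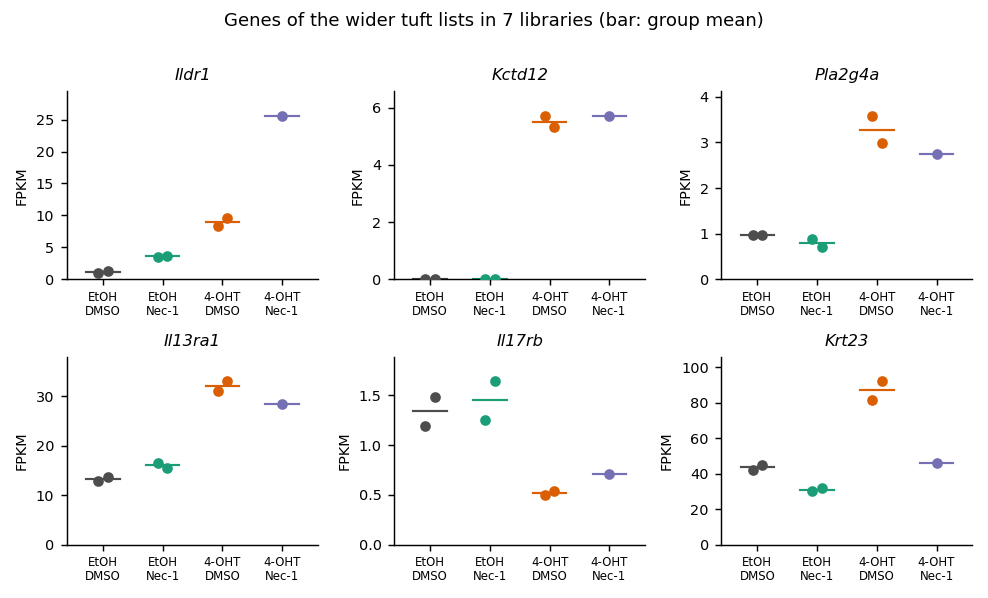
FPKM (y axis, from 0) of 6 genes of the wider tuft lists by group (x axis), with a point for each of the 7 libraries and a bar at the group mean. Ildr1 is highest in 4-OHT Nec-1, Kctd12 is at 0 in the EtOH libraries, and Il17rb is the gene of the 6 that is lower with 4-OHT.

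Marker lists of the other epithelial cell types were counted in the same way. Between 4-OHT DMSO and EtOH DMSO 9 of 10 Paneth cell genes rose (median log2 difference 1.52), as did 12 of 12 enteroendocrine genes (0.96) and 8 of 10 goblet cell genes (0.99), and 0 of these fell, where 24.5% of all tested genes were called higher and 16.7% lower. With centred libraries 9 Paneth, 12 enteroendocrine and 6 goblet cell genes were called higher. The median over the 4 tested tuft members was -0.046, with 1 called higher. Of 9 tested enterocyte genes 2 rose and 5 fell (median -0.45), and of 8 stem cell genes 0 rose and 4 fell (-0.50). Among the stem cell genes, Lgr5 and Gkn3 passed the filter only through the EtOH DMSO libraries, so their direction was partly set by the filter. The most abundant gene of each list was Defa24 for Paneth cells (1.38, limma adjusted p = 0.000912), Gip for enteroendocrine cells (1.48, 0.00113), Tff3 for goblet cells (0.37, 0.0413), Fabp1 for enterocytes (-0.32, 0.0829) and Slc12a2 for stem cells (0.17, 0.531). The difference between the tuft list and these lists was not itself tested.

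**Figure D5:**
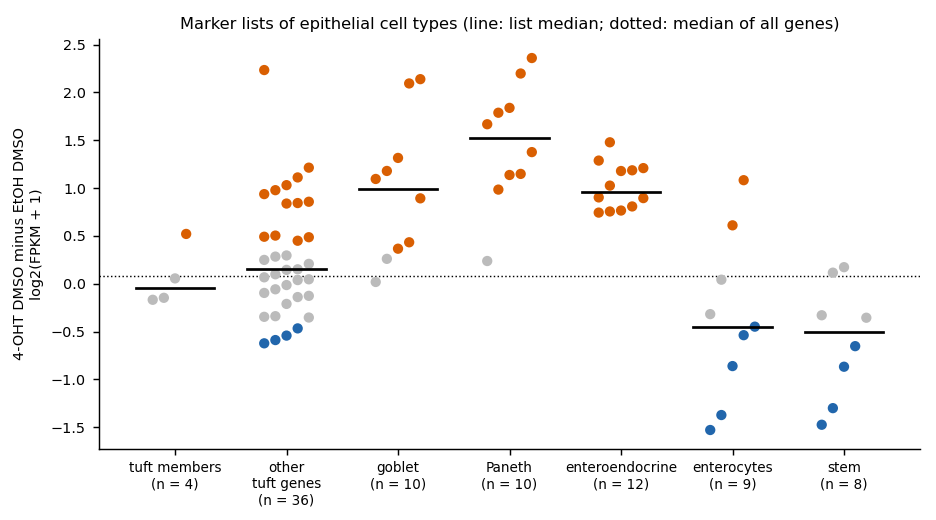
Log2 difference between 4-OHT DMSO and EtOH DMSO (y axis, log2(FPKM + 1)) of the tested genes of 7 marker lists (x axis), with the list median as a line and the median of all genes dotted. Orange is called higher, blue lower and grey not called, and Kctd12 is not drawn. The Paneth and enteroendocrine medians are 1.52 and 0.96. That of the tuft members is -0.046 and covers the 4 that passed the filter, without Dclk1, Trpm5, Pou2f3, Gfi1b and Il25.

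Markers of cells outside the epithelium were also measured. The 10 leukocyte genes summed to 3.77 to 3.80 FPKM in EtOH DMSO, 6.01 to 6.47 in EtOH Nec-1 and 7.15 to 9.24 in 4-OHT DMSO. Their sum was 10.6 in 4-OHT Nec-1, similar to the sum of the 9 tuft genes in that library. The pan-leukocyte gene Ptprc did not exceed 0.0497 FPKM, whereas the myeloid genes Itgam and Lyz2 reached 2.45 and 2.63 FPKM. Lyz2 was at 2.52, 1.55 and 2.63 FPKM in the 3 Nec-1 libraries and at 0.237 to 0.677 in the 4 DMSO libraries. Much of that sum in the libraries labelled 4-OHT was Cd68, a lysosomal protein (5.69, 7.72 and 6.14 FPKM against 0.774 to 2.01 with EtOH, log2 difference between DMSO groups 1.73, limma adjusted p = 0.00689). Of 6 mast cell genes 5 were listed at 0 in all libraries, the remaining one being Kit, at 0.745 to 1.11 FPKM. The 8 stromal genes summed to 0.914 to 1.81 FPKM, with Vim the most abundant (-0.027, limma adjusted p = 0.911). Of the type 2 cytokines 3 of 5 were listed at 0 in all libraries. Il33, an epithelial alarmin, was at 0.334 and 0.476 FPKM in EtOH DMSO and 1.67 and 1.14 in 4-OHT DMSO (log2 difference 0.77, limma adjusted p = 0.0164). It was at 0.245 and 0.173 FPKM in EtOH Nec-1 and at 0.326 in 4-OHT Nec-1. Il33 thus passed the filter only through the 4-OHT DMSO libraries, so its direction was partly set by the filter. The part of these cells in the tuft gene values was not tested.

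The genes whose profile was most like the median profile of the 4 tested members over the 7 libraries were Dlat, Ndfip1, Scgn, Pced1a and Fam174a. Their root mean square distance was 0.0384 to 0.0625 log2 units, beside a median of 0.282 over all tested genes. That median profile was highest in the second EtOH Nec-1 library (0.22 above its mean). Single members varied more, Avil from -0.27 to 0.53 and Rgs13 from -0.47 to 0.56 around their own means, so the 5 genes are close to the median and not to each member.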

How the data were processed

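RNA was sequenced from 7 organoid libraries, and 2 CUT&Tag samples were not analysed here. Per the submitters' processing notes, the authors used HISAT2 2.1.0 and StringTie 1.3.3b with mm10 and deposited FPKM per gene; the annotation is not given in the sources used here. One table repeated 2 columns of others, which were used once. Symbols were found for 54723 of 54838 identifiers. Groups followed the labels, which do not say that replicates came from separate cultures, so p-values measure the spread between libraries, which may be technical.

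Values were tested as log2(FPKM + 1) with limma 3.58.1 in R 4.3.3 (mean-variance trend), 1 mean per group over all 7 libraries (3 residual degrees of freedom), in the 12702 genes that reached 1 FPKM in 2 or more libraries. P-values were adjusted by Benjamini-Hochberg over all genes tested and called at 0.05. Exact two-sided permutation tests used scipy 1.17.1. For 4-OHT Nec-1 (1 library), genes averaging 1 FPKM or more over the 3 4-OHT libraries were compared with each DMSO library. The test was checked on simulated data.

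Named genes were all members, Mettl3, up to 4 called genes and the most abundant gene of each tuft list. Genes of these lists called or past 1 log2 unit with Nec-1, the most abundant gene of other lists and the 5 nearest profiles were also named. Ptprc, Itgam, Lyz2, Lgr5 and Gkn3 were chosen after their values were seen. Members, lists and tests were chosen with earlier results of these data known. Alternatives were other filters, pseudocounts and scalings, no trend, the 4 libraries of a comparison alone, a replicate block and leaving out each library. Promoters came from RefSeq (GRCm38.p6), where Pou2f3, Il25 and Alox5ap had no entry.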

Additional observations from a re-analysis of the deposited data

How the results depend on the processing

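Between 4-OHT DMSO and EtOH DMSO, the count of members called higher, 1 in the analysis as reported, was 0 with median centring, upper quartile scaling, no filter, a filter of 0.1 FPKM in at least 2 libraries, that filter with a pseudocount of 0.1 (chosen after seeing the data) and the 4 libraries of the comparison alone. It was 0 to 1 when a library was left out, with the call lost without either EtOH DMSO library, either EtOH Nec-1 library or the second 4-OHT DMSO library. The adjusted p of Avil was 0.0553 to 0.137 where its call was lost. The wider tuft list had 7 genes called lower with median centring, 1 with no filter and 2 with 1 FPKM in every library, against 4 as reported, and 2 to 4 when a library was left out (2 without the second EtOH DMSO, the second EtOH Nec-1 or the first 4-OHT DMSO library). With Nec-1 in EtOH, 1 gene of the wider list, Ildr1, was called higher with median centring, upper quartile scaling and the 4 libraries alone, and 0 to 1 when a library was left out (1 without either 4-OHT DMSO library). Among these settings, the share of all genes called was counted only with median centring and with the 0.1 FPKM filter. Uncalled differences changed sign. With 4-OHT, Sh2d6 was -0.10 with median centring and -0.065 with upper quartile scaling, and ran from -0.15 (without EtOH DMSO replicate 1) to 0.26 when a library was left out, negative also without 4-OHT DMSO replicate 2 (-0.039), and Rgs13 ran from -0.35 to 0.057, positive without the same libraries (0.014 without the second). With Nec-1 in EtOH, Avil was 0.015 with median centring, Alox5ap ran from -0.041 (without EtOH Nec-1 replicate 2) to 0.30, and Sh2d6 from -0.19 (without EtOH DMSO replicate 1) to 0.22, with -0.16 without EtOH Nec-1 replicate 2. The cause was not tested.

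With a replicate block, 1 member was called higher (Avil, adjusted p = 0.0450), and 14 genes of the wider list were higher and 3 lower. The deviations of same-numbered libraries had correlations across genes of -0.040, 0.0065 and -0.012, so no shift shared by replicate number was seen. Whether same-numbered libraries share a culture or batch is not given by the labels and cannot be settled this way. With FPKM and no read totals, the depth behind low members such as Dclk1 and Gfi1b is unknown, and 2 libraries per group leave wide intervals.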
